A study of Mus musculus with 8 samples.

Results

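The genes described here are 9 transcription regulators that set up the dorsal forebrain and cerebral cortex: Lhx2, Emx1, Emx2, Pax6, Dmrta2, Dmrt3, Otx1, Otx2 and Lmo3. They were chosen by name, and all 9 were found among the 15538 genes of the table by matching Ensembl identifiers to mouse symbols. The libraries were bulk RNA sequencing of embryonic mouse brain neural stem cells cultured as neurospheres, floating balls of stem and progenitor cells. Of the 8 libraries, 4 are labelled WT and 4 are labelled Phf23-/-, homozygous for loss of a PHD-finger chromatin gene. No treatment is named for either genotype. The sources used here do not state the strain, the embryonic age, the brain region or how the allele was made. The study asked how loss of Phf23 holds back the differentiation of these cells.

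In the embryo, dorsal forebrain progenitors acquire their identity through homeodomain and DM-domain transcription factors whose graded levels divide the cortical sheet into areas. Lhx2 is known as a selector of cortical over hem fate, Emx2 and Pax6 as opposing determinants of posterior and anterior area identity, and Dmrta2 and Dmrt3 as regulators of the medial cortex that hold ventral genes down. Otx1 and Otx2 are homologues of the fly head gene orthodenticle, and Lmo3 is a LIM-only protein that has no DNA-binding domain and acts through partner proteins.

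The targeted gene went against its label. Phf23 had 720, 766, 788 and 919 normalised reads in WT 1 to 4, and 1607, 1528, 1429 and 1361 in libraries labelled Phf23-/- 1 to 4 (log2 fold change 0.89 ± 0.106 SE, limma-trend FDR = 0.000581), and directions are therefore given between the 2 labels as they stand. If only some exons were removed, a total over the gene would not show it. Depth ran from 15647304 to 19462516 reads per library. The labels do not tie replicates to different animals or cultures. A p-value here therefore reflects only how these libraries vary, and that variation may be technical. Libraries also differed in how expression depended on transcript length: the slope, in log2 units per doubling of length, was 0.26, 0.20, 0.08 and 0.06 in WT 1 to 4 and -0.24, -0.31, -0.09 and 0.04 in those labelled Phf23-/- 1 to 4 (exact permutation test, two-sided, p = 0.0286, which is the smallest for 4 against 4). The 4 steepest slopes, of either sign, were those of WT 1 and 2 and Phf23-/- 1 and 2. Marker genes of other cell types moved with the labels in both directions. For comparison with the marker counts that follow, 14.8% of all genes were called higher and 14.8% lower (limma-trend, FDR under 0.05). Of the neural stem cell markers 4 were called higher and 1 lower of 12, and they summed to 180863 to 189347 normalised reads per WT library and 196011 to 223521 per library labelled Phf23-/-. The largest parts of that sum moved differently. Vim had 67797 ± 4334 and 86985 ± 14997 (not called), Fabp7 rose from 26984 ± 2073 to 41845 ± 7840, and Ptprz1 fell from 41647 ± 6851 to 27441 ± 5394. Nes and Slc1a3 were not called. Of the oligodendrocyte markers 6 were higher and 1 lower of 10. Their sum (17677 to 22737 and 20650 to 21441) is mostly Olig2, which was not called, while Mbp rose from 46.2 ± 19.3 to 193 ± 14.9, Sox10 from 117 ± 10.4 to 288 ± 59.2, Bcas1 from 134 ± 11.7 to 316 ± 26.9, Enpp6 from 5.82 ± 1.40 to 25.8 ± 4.37 and Mag from 4 to 35 reads in all, and Cspg4 fell from 2336 ± 78.4 to 1414 ± 281. Of the neuron markers 2 were higher and 2 lower of 10 (sums of 23995 to 29141 and 20674 to 22371). Most of that sum was Map2, which fell from 17464 ± 2504 to 10077 ± 1236, and Gap43, which rose from 6493 ± 285 to 9281 ± 1329. Of the astrocyte markers 3 were higher and 3 lower of 8 (14184 to 15887 and 13283 to 14369). Of 10 microglia and blood cell markers only Cd68 was in the table, at 193 to 216 and 217 to 409. Of the endothelial and mesenchymal markers 6 of 12 were in it, at sums of 100.1 to 149 and 122 to 152, with 0 called. Of the choroid plexus markers 7 of 9 were in it. Their sum (688 to 903 and 699 to 769) is nearly all Enpp2 (764 ± 89.2 and 704 ± 32.6), the other 6, Otx2 among them, had means under 10 in both labels, and the defining gene Ttr was absent from the table. The part of these cell types in the results was not tested, and in bulk RNA fewer cells of a type and less RNA per cell cannot be told apart.

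Of the 9 genes, Dmrta2 rose and Lmo3 and Otx2 fell in the libraries labelled Phf23-/-, by the limma-trend test across all genes at a false discovery rate (FDR) under 0.05. The other 6 did not pass, and the median log2 fold change of the 9 was 0.09, beside 0.00 for all genes tested. Among all genes tested, 14.8% were called higher and 14.8% lower, so 1 and 2 of 9 is close to the background share. The libraries of the 2 labels did not overlap for 3 of the 9 (Dmrta2, Dmrt3 and Lmo3), against 27.7% of all genes. The means of Lhx2, Emx2, Pax6 and Otx1 differed between the labels by 1.06-fold to 1.19-fold.

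The sequences before the start sites of Dmrta2 and Lmo3 are shown because these 2 genes were called in opposite directions with no overlap between the labels. Each is the 250 bases before the RefSeq start on GRCm38.p6 (the assembly that mm10 denotes), 5′ to 3′ on the gene's strand, with matches to the E-box CANNTG in capitals. E-boxes are the DNA element of basic helix-loop-helix proteins, the class that includes the Tcf4 protein named in the study's title.
Dmrta2, chr4:109977775-109978024, plus strand: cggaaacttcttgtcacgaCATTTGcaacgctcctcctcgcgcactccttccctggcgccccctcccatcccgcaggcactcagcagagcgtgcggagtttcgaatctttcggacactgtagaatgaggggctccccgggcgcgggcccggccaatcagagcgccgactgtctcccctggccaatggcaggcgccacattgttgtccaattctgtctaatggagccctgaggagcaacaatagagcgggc
Lmo3, chr6:138581969-138582218, minus strand: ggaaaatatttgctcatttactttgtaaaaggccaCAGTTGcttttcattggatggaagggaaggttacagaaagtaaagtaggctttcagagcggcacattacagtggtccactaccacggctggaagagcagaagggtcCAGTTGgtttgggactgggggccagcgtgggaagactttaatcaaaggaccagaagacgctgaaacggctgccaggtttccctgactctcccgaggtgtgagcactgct
The Dmrta2 window held 1 E-box and 19 CpG dinucleotides at 61.6% GC, and the Lmo3 window held 2 E-boxes, both with the same letters, and 6 CpG dinucleotides at 50% GC. An E-box was present in 66.2% of all 32851 windows of this length in the promoter table, on either strand since the motif is its own reverse complement. Neither window held the homeodomain core TAATTA (4.84% of all windows), the GC box GGGCGG (32.7%, both strands) or TATAAA (12.4%, both strands). A match describes these letters and is not evidence of binding.

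Expression of the set was uneven. Per kilobase of the longest annotated transcript, which need not be the one expressed, Lhx2 led in WT with a level of 746 ± 164 normalised reads per kb (SD, n = 4), above 89.8% of all genes. A group of 5 followed: Emx2 at 199 ± 12.8, Dmrta2 at 185 ± 69.9, Lmo3 at 162 ± 13.1, Otx1 at 136 ± 19.4 and Pax6 at 104 ± 7.67. Within that group Emx2 and Dmrta2, Dmrta2 and Lmo3, and Lmo3 and Otx1 overlapped over the WT libraries, while every WT library had more Otx1 than any had Pax6. Dmrt3 at 9.61 ± 2.58, Otx2 at 3.58 ± 1.91 and Emx1 at 2.46 ± 1.73 per kb were far lower. In the libraries labelled Phf23-/- the order changed in 3 places: Dmrta2 (294 ± 13.4 per kb) stood above Emx2 (216 ± 7.09), Otx1 (161 ± 17.98) above Lmo3 (122 ± 4.81), and Emx1 (1.13 ± 1.154) above Otx2 (0.841 ± 0.552). The last rests on 7 reads of Emx1 and 9 of Otx2 in all, whose order turned only once they were divided by transcript length.

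**Figure D1:**
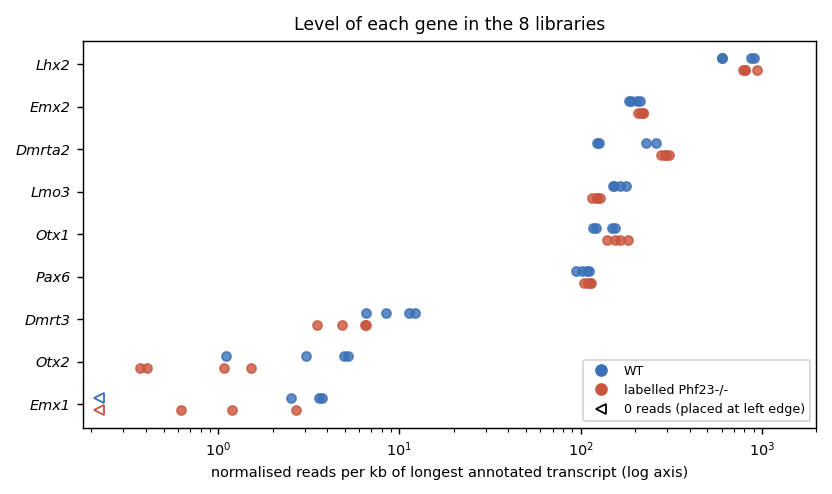
Normalised reads per kilobase of longest annotated transcript (log axis) for each of the 9 genes, one point per library, WT in blue and libraries labelled Phf23-/- in red; open triangles mark libraries with 0 reads. Lhx2 lies highest, 5 genes lie near 100 to 300 per kb, and Dmrt3, Otx2 and Emx1 lie below 15.

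Lhx2, a LIM-homeodomain factor (ENSMUSG00000000247, chr2:38339281-38369733, plus strand of mm10), showed 1713, 1721, 2471 and 2567 normalised reads in WT 1 to 4. The libraries labelled Phf23-/- 1 to 4 had 2287, 2686, 2281 and 2237. WT 1 and 2 lay below the other 6 libraries, and WT 3 and 4 lay inside the range of the libraries labelled Phf23-/-. The means were 2118 ± 465 and 2373 ± 210 (SD, n = 4 each). On the log2 scale the difference was 0.19 ± 0.143 SE, its 95% interval ran from -0.12 to 0.50, and it was not called (limma-trend FDR = 0.347). Its sign turned when the length effect was modelled: it was -0.06 with a length and GC trend subtracted from each library (FDR = 0.684), -0.21 with that slope as a covariate (FDR = 0.724) and -0.16 once the 4 steepest libraries were left out (FDR = 0.413).

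Emx2, a homeodomain factor known to specify posterior and medial cortex (ENSMUSG00000043969, chr19:59458372-59465357, plus strand), was the steadiest of the set. It had 556, 542, 622 and 600 normalised reads (599.7 in WT 4) in WT 1 to 4 and 625, 644, 603 and 648 in those labelled Phf23-/- 1 to 4. Its coefficient of variation was 6.44% within WT and 3.28% within the other label, and only WT 3 reached into the range of the libraries labelled Phf23-/-. The log2 fold change of 0.12 ± 0.0987 had a 95% interval of -0.09 to 0.33 (limma-trend FDR = 0.378). The antisense gene Emx2os overlaps Emx2, and without a stated use of strand their reads cannot be told apart; it had 113 ± 27.7 and 123 ± 28.3 normalised reads (SD, n = 4 each, limma-trend FDR = 0.705).

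Emx1, the paralogue that marks dorsal telencephalic progenitors (ENSMUSG00000033726, chr6:85187438-85204462, plus strand), was almost silent. It had 4, 0, 5 and 6 reads in WT 1 to 4 and 0, 4, 2 and 1 in those labelled Phf23-/- 1 to 4, so 15 against 7 reads in all. A count of 0 allows up to 3 reads, which is 2.88 normalised reads in WT 2 and 2.89 in Phf23-/- 1, and this covers counting error only. The labels overlapped throughout, and at this depth a difference was not detectable (log2 fold change -0.73 ± 0.741, 95% interval -2.33 to 0.87, limma-trend FDR = 0.486).

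Pax6, a paired-domain factor of radial glia (ENSMUSG00000027168, chr2:105668900-105697364, plus strand), had 482, 450.2, 416 and 491 normalised reads in WT 1 to 4. Those labelled Phf23-/- 1 to 4 had 504, 499, 463 and 483. The ranges overlapped, and the means of 460 ± 34.0 and 488 ± 18.5 (459.9 and 487.6 before rounding, SD, n = 4 each) lay 1.06-fold apart. The log2 fold change was 0.09 ± 0.104 with a 95% interval of -0.14 to 0.31 (limma-trend FDR = 0.563). WT 1 and 2 did not stand apart for Pax6 as they did for Lhx2. Of its neighbours, Elp4 had 533 ± 97.1 and 442 ± 14.9 normalised reads (limma-trend FDR = 0.172) and the long noncoding RNA Paupar had 5 and 13 reads in all.

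**Figure D2:**
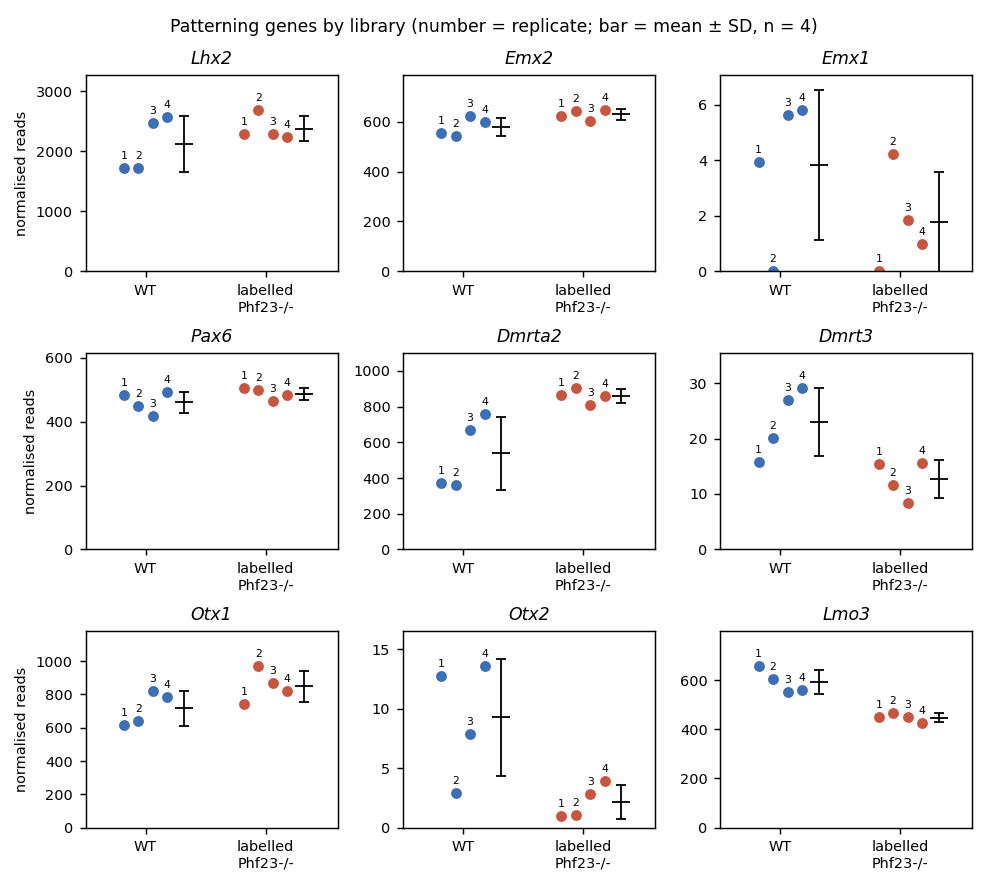
Normalised reads of each of the 9 genes on linear axes from 0, one point per library with its replicate number, WT in blue and libraries labelled Phf23-/- in red; the black bar is the mean ± SD of 4 libraries. Dmrta2, Dmrt3 and Lmo3 do not overlap between the labels, and WT 1 and 2 are the lowest libraries for Lhx2, Dmrta2 and Otx1.

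Dmrta2, a DM-domain factor needed for the cortical hem and medial cortex (ENSMUSG00000047143, chr4:109978053-109983687, plus strand), rose. It had 371, 361, 672 and 758 normalised reads in WT 1 to 4 and 866, 903, 809 and 857 in those labelled Phf23-/- 1 to 4. All libraries labelled Phf23-/- lay above all WT libraries, and the WT libraries themselves spanned 2.10-fold, with 1 and 2 far below 3 and 4. The means were 540.3 ± 204 and 859 ± 39.1 (SD, n = 4 each), 1.59-fold apart. The fitted difference of mean log2 values was 0.75 ± 0.214, with a 95% interval from 0.28 to 1.21 (limma-trend FDR = 0.0219). The call ended without WT 1 (log2 0.59, FDR = 0.0700), without WT 2 (0.58, FDR = 0.0728) or without Phf23-/- 1 (0.74, FDR = 0.0634). It held at 0.35 with the length and GC trend subtracted (FDR = 0.0257) and did not at 0.23 with the slope as a covariate (FDR = 0.874) or at 0.22 without the 4 steepest libraries (FDR = 0.290).

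Dmrt3, its DM-domain relative in the medial cortex (ENSMUSG00000042372, chr19:25610301-25623921, plus strand), was scarce and lay the other way. It had 16, 21, 24 and 30 reads in WT 1 to 4 and 16, 11, 9 and 16 in those labelled Phf23-/- 1 to 4. In normalised reads this was 15.7, 20.2, 27.002 and 29.1 against 15.4, 11.6, 8.37 and 15.7 (15.70 in WT 1 and 15.65 in Phf23-/- 4), so the labels were separate by a margin of less than 1 read. The means were 23.0 ± 6.17 and 12.8 ± 3.46 (SD, n = 4 each), with a log2 fold change of -0.80 ± 0.318 (95% interval -1.49 to -0.11). It missed the threshold (limma-trend FDR = 0.0736) and passed it only with the length and GC trend subtracted (log2 -1.14, FDR = 0.0190). The log2 ratio of Dmrta2 to Dmrt3 within a library was 4.56, 4.16, 4.64 and 4.70 in WT 1 to 4, and 5.81, 6.29, 6.59 and 5.77 in libraries labelled Phf23-/-. The groups did not overlap, and the ratio was 1.6005 higher on the log2 scale in the latter (two-sided exact permutation p = 0.0286, 0.0571 after adjustment over the 4 ratios computed). In this ratio WT 1 and 2 did not form a group apart, unlike in Dmrta2 alone.

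Otx1, a homeodomain factor of cortical progenitors and deep-layer neurons (ENSMUSG00000005917, chr11:21994764-22002897, minus strand), had 616, 639, 820 and 786 normalised reads (820.2 in WT 3) in WT 1 to 4. Those labelled Phf23-/- 1 to 4 had 741, 968, 866 and 818. WT 1 and 2 were again the lowest, and the rest overlapped. The means were 715 ± 103 and 848 ± 94.8 (SD, n = 4 each), with a log2 fold change of 0.25 ± 0.127 (95% interval -0.02 to 0.52, limma-trend FDR = 0.153). Trend subtraction gave 0.36 (FDR = 0.0613) and the slope covariate 0.02 (FDR = 0.986). Its neighbour Ehbp1, on the same strand with a gap of 2931 bases, fell from 755 ± 98.3 to 574 ± 35.9 (log2 -0.39, limma-trend FDR = 0.0261). Its call ended without WT 1, WT 2, Phf23-/- 1 or Phf23-/- 2 (log2 -0.46 to -0.31 and highest FDR = 0.0874 over the libraries left out), and it was -0.14 with the trend subtracted (FDR = 0.249).

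Otx2, which is needed for the anterior neural plate and later marks hem and choroid plexus (ENSMUSG00000021848, chr14:48657677-48673819, minus strand), fell from a level already near the limit. It had 13, 3, 7 and 14 reads in WT 1 to 4, and 1, 1, 3 and 4 in libraries labelled Phf23-/- 1 to 4, so 37 against 9 in all. WT 2 lay within the range of the latter and the other 3 WT libraries above it. The means were 9.27 ± 4.95 and 2.18 ± 1.43 normalised reads (SD, n = 4 each), 4.25-fold apart. The fitted difference of mean log2(value + 1) was -1.63 ± 0.545, with a 95% interval from -2.81 to -0.45 (limma-trend FDR = 0.0397). It kept its call only without WT 2 or Phf23-/- 4 (FDR = 0.0333 and 0.0229). Without each of the other 6 libraries the log2 fold change was -1.75 to -1.41 and FDR = 0.0551 to 0.121. It was also not called with a pseudocount of 0.1 (FDR = 0.0537), with the slope as a covariate (log2 -0.89, FDR = 0.809) or without the 4 steepest libraries (log2 -1.40, FDR = 0.206), and it was too scarce to enter the edgeR test. The log2 ratio of Otx1 to Otx2 was 6.49 ± 0.992 in WT and 8.85 ± 1.03 in those labelled Phf23-/- (SD, n = 4 each, two-sided exact permutation p = 0.0571, adjusted 0.0762), with overlap between the labels.

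Lmo3, the LIM-only cofactor (ENSMUSG00000030226, chr6:138362918-138581968, minus strand), fell with the lowest FDR of the set. It had 656, 605, 550.2 and 561 normalised reads in WT 1 to 4, and 450, 468, 449 and 425 in libraries labelled Phf23-/- 1 to 4 (449.6 in the first). All 4 of the latter lay below all 4 of WT. The means were 593 ± 48.0 and 448 ± 17.6 (SD, n = 4 each), 1.32-fold apart, or -0.40 ± 0.104 in log2 units, with a 95% interval from -0.63 to -0.18 (limma-trend FDR = 0.0153). The call ended without WT 1 (log2 -0.35, FDR = 0.0544) or WT 2 (-0.39, FDR = 0.0516). It also ended with the trend subtracted (-0.25, FDR = 0.0508), with the slope as a covariate (-0.38, FDR = 0.341) and without the 4 steepest libraries (-0.35, FDR = 0.0971). The antisense gene A830011K09Rik overlaps Lmo3, so their reads cannot be told apart either. A830011K09Rik had 43.6 ± 11.1 and 42.8 ± 12.8 normalised reads. Other genes on the opposite strand that overlap a member were not in the table, and the same limit holds for them. They are Gm30332 and B230110G15Rik (Lmo3), Gm27197 and Gm13584 (Lhx2), Pax6os1 (Pax6) and Otx2os1 (Otx2). The log2 ratio of Lhx2 to Lmo3 was 1.39, 1.51, 2.17 and 2.19 in WT 1 to 4 and 2.35, 2.52, 2.34 and 2.40 in libraries labelled Phf23-/-, separate by label and 0.59 higher in the latter (two-sided exact permutation p = 0.0286, adjusted 0.0571). With the trend subtracted the difference was 0.19 (exact permutation p = 0.143).

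**Figure D3:**
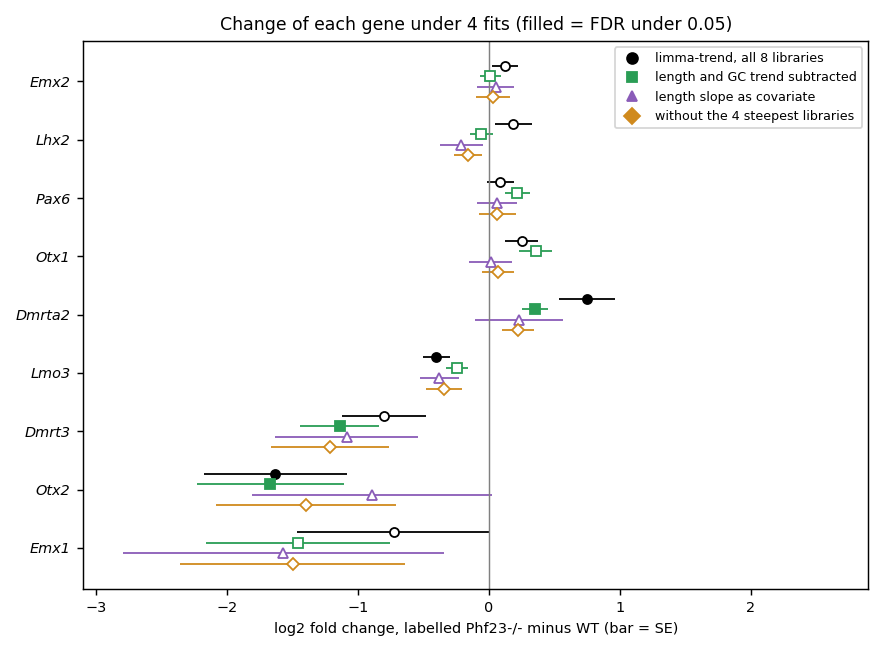
Log2 fold change of each gene, libraries labelled Phf23-/- minus WT, with SE, under the limma-trend test on all 8 libraries, after subtraction of a length and GC trend, with each library's slope as a covariate, and with the 4 steepest libraries left out; filled symbols have FDR under 0.05. Dmrta2 shrinks from 0.75 to between 0.22 and 0.35, Lmo3 stays between -0.40 and -0.25, and Lhx2 changes sign.

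Counted over these fits, 3 of the 9 genes were called with the trend subtracted (Dmrta2 higher, Dmrt3 and Otx2 lower), where 18.4% of all genes were called in either direction. With the slope as a covariate 0 of 9 were called, against 1.09% of all genes, and Lmo3 was the only one of the 9 with an unadjusted p under 0.05 there (0.0219). Every WT slope lay above every slope of the libraries labelled Phf23-/-, so that fit separates label and slope poorly. The SE was larger there for each of the 9, for example 0.150 against 0.104 for Lmo3 and 0.337 against 0.214 for Dmrta2. Without the 4 steepest libraries 0 of 9 were called, against 9.15% of all genes, and Dmrt3, Lmo3 and Otx2 had unadjusted p = 0.00725, 0.0120 and 0.0412. That fit compares WT 3 and 4 with Phf23-/- 3 and 4, with 2 libraries a label. Of the tools that model counts, DESeq2 called Dmrta2, Otx2 and Lmo3 (adjusted p = 0.0117, 0.0267 and 0.00170), and edgeR called Dmrta2 and Lmo3 (FDR = 0.0332 and 0.0145).

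Several of the genes varied together from library to library. Over the 8 libraries the 6 pairs among Emx2, Lhx2, Dmrta2 and Otx1 had Pearson r of 0.84 to 0.93 on log2 values, and 0.73 to 0.96 once each label's mean was removed. Lmo3 ran against these 4, with r of -0.87 to -0.59. Pax6 had r of 0.10 to 0.34 with these 4, and -0.13 to 0.68 with the trend subtracted, highest with Dmrta2 and Otx1. Beside this, WT 1 and 2, with the steepest positive length slopes, had the lowest Lhx2, Dmrta2 and Otx1 and the highest Lmo3. With the trend subtracted the r among the 4 genes was 0.26 to 0.81 and that of Lmo3 with them -0.75 to 0.19. These values describe 8 libraries that differ in depth, label and length slope, and such differences enter each r.

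**Figure D4:**
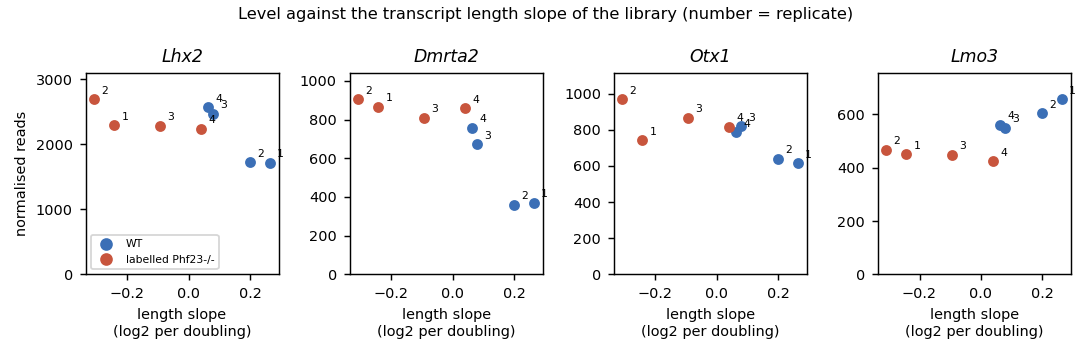
Normalised reads (linear axes from 0) of Lhx2, Dmrta2, Otx1 and Lmo3 in each library against that library's slope of expression on transcript length, WT in blue, libraries labelled Phf23-/- in red, numbers for replicates. WT 1 and 2, at slopes of 0.26 and 0.20, are lowest for the first 3 genes and highest for Lmo3, while WT 3 and 4 lie nearer the libraries labelled Phf23-/-.

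Among 11225 other named genes whose mean was 50 normalised reads or more, those most like each of the 9 over the 8 libraries were found by Pearson r. Each r is the highest of so many over only 8 libraries, so a high value can be met between unrelated genes. Differences of label and length slope between libraries enter each r as well. For Emx1, with 0 to 6 reads a library, and Otx2, with 1 to 14, counting error enters too. Lhx2 was most like the adhesion receptor gene Adgrb1 (r = 0.98). Dmrta2 was most like Tcf3, which encodes an E protein (r = 0.99), and the brevican gene Bcan (r = 0.99). Lmo3 was most like the splicing regulator Ptbp2 (r = 0.98) and the lipoprotein lipase gene Lpl (r = 0.97). Emx2 was most like Izumo4 and Tusc1 (r = 0.97 and 0.96), Otx1 like Klf15 and Tmem80 (0.97 and 0.97), and Pax6 like Wwox and Nop14 (0.94 and 0.91). The 3 scarce genes were most like Ece2 and Nolc1 (Dmrt3, 0.97 and 0.97), Kcnn1 and Zfp568 (Otx2, 0.96 and 0.96) and Otud1 and Gclm (Emx1, 0.86 and 0.85).

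Other dorsal and cortical progenitor factors showed 4 higher and 2 lower of 18 measured, with a median log2 fold change of 0.11. The counts of this list and of those that follow stand beside 14.8% higher and 14.8% lower among all genes. No list was tested as a set. Nr2f2, the COUP-TFII nuclear receptor gene, fell from 228 ± 25.5 to 30.2 ± 6.51, and Hes5, a Notch effector, and Id4, an inhibitor of helix-loop-helix proteins, rose from 472 ± 70.8 to 1523 ± 398 and from 90.5 ± 6.42 to 169 ± 12.5 (limma-trend FDR = 1.6e-05, 0.000332 and 0.00249). After trend subtraction Hes5 lost its call, at log2 1.01 in place of 1.67 (FDR = 0.0837), and with the slope as a covariate Id4 did (0.85 against 0.89, FDR = 0.0961). Hes5 was called with that covariate (2.12, FDR = 0.000434) and Id4 with the trend subtracted (1.06, FDR = 0.000188). Without the 4 steepest libraries Hes5 and Id4 were both called (1.98 and 0.88). Fezf1 and Fezf2, known forebrain zinc finger genes, were not in the table.

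Downstream of Pax6, genes of dorsal neurogenesis showed 3 higher and 1 lower of 14 measured, with a median of -0.06. The genes that define cortical neurogenesis were near 0: Neurog2 had 0 reads in all 4 WT libraries and 13 in those labelled Phf23-/-, Eomes had 13 and 12 reads and Tbr1 had 24 and 14. Neurod1 rose from 65.8 ± 5.33 to 148 ± 24.9 and the radial glia gene Fabp7 from 26984 ± 2073 to 41845 ± 7840 (limma-trend FDR = 0.00166 and 0.00923). The Fabp7 change was 0.32 with the trend subtracted and 0.17 with the slope as a covariate (FDR = 0.00446 and 0.657), against 0.62, and Neurod1 was not called with that covariate either (0.93 against 1.147, FDR = 0.117). Neurod1 was called with the trend subtracted (1.18), and Neurod1 and Fabp7 were called without the 4 steepest libraries (1.03 and 0.34). The lower count was 0 in 5 of the 8 fits that leave out a library.

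The partners through which LIM proteins such as Lhx2 and Lmo3 act showed 2 higher and 1 lower of 11 measured, with a median of 0.15. Ldb1, the main adaptor of LIM-homeodomain complexes, rose from 2284 ± 271 to 3257 ± 203 and Ssbp4, which binds Ldb proteins, from 2357 ± 841 to 4722 ± 1012 (limma-trend FDR = 0.00672 and 0.00832). Ldb2 fell from 109 ± 5.65 to 68.3 ± 14.6 (limma-trend FDR = 0.0160), and its call ended without WT 2 or Phf23-/- 1 (highest FDR = 0.0569). With the trend subtracted Ldb1, Ssbp4 and Ldb2 were called at log2 0.33, 0.47 and -0.70, against 0.52, 1.05 and -0.69. With the slope as a covariate none of the 3 was called (0.32, 0.19 and -0.65, FDR = 0.335, 0.826 and 0.460), and without the 4 steepest libraries Ldb2 was not (FDR = 0.0839). The other LIM-only genes had values of 1199 ± 166 and 1359 ± 355 (Lmo1), 106 ± 10.03 and 80.2 ± 20.6 (Lmo2) and 3107 ± 159 and 3475 ± 347 (Lmo4), none called (limma-trend FDR = 0.526, 0.104 and 0.249). With the trend subtracted Lmo2 was called lower (log2 -0.77, FDR = 0.0120), and Lmo1 and Lmo4 turned negative (-0.28 and -0.12, FDR = 0.0416 and 0.281), so that Lmo1 was called lower too, as it was with the slope as a covariate (-0.53, FDR = 0.0491).

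Relatives by family showed 2 higher and 0 lower of 7 measured, with a median of 0.55, and 11 of the 18 listed were not in the table. Dmrtb1, a DM-domain gene best known from the testis, had 244, 302, 375 and 364 normalised reads in WT 1 to 4, and 1019, 1191, 993 and 855 in libraries labelled Phf23-/- 1 to 4. All of the latter lay well above WT, with a log2 fold change of 1.67 ± 0.150 (limma-trend FDR = 0.00022). It was 1.24 with the trend subtracted, 1.17 with the slope as a covariate and 1.32 without the 4 steepest libraries, and was called in each. Per kilobase, Dmrtb1 was at 173 in WT and 545 in those labelled Phf23-/-, beside 185 and 294 for Dmrta2. Dmrta1 had 40.2 ± 4.83 and 25.05 ± 7.72 normalised reads (limma-trend FDR = 0.0605). Pax7 rose from 2.99 ± 1.89 to 10.5 ± 3.09 (limma-trend FDR = 0.0189), and its call ended without WT 1, WT 2 or Phf23-/- 1 (highest FDR = 0.0577) and in 2 of the 3 length fits (FDR = 0.474 and 0.167).

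Signals of the hem and antihem, the cortical edges that pattern the sheet between them, showed 4 higher and 1 lower of 14 measured, with a median of -0.02. Wnt7b rose from 1358 ± 239 to 2355 ± 181, Wnt7a from 1029 ± 77.1 to 1453 ± 99.5 and the Wnt target Axin2 from 807 ± 53.9 to 1043 ± 75.9 (limma-trend FDR = 0.00270, 0.00649 and 0.0175). Bmp7 also rose, from 2934 ± 188 to 3689 ± 191, and Tgfa fell from 381 ± 13.8 to 296 ± 53.4 (limma-trend FDR = 0.0191 and 0.0496). Of the other ligands measured, Wnt2b, Wnt5a, Bmp2, Nrg1 and Fgf7 had lower means in libraries labelled Phf23-/-. Bmp4 had a higher mean, and none of these was called. Axin2 lost its call without WT 1 or WT 2 (highest FDR = 0.0592), where the list's higher count was 2. The lower count was 0 in 7 of the 8 fits that leave out a library, and with the slope as a covariate 0 were called either way (Wnt7b, Wnt7a and Axin2 FDR = 0.102, 0.216 and 0.160). Wnt7b, Wnt7a and Axin2 were called with the trend subtracted (log2 0.63, 0.36 and 0.38) and without the 4 steepest libraries (0.60, 0.40 and 0.39). Wnt3a, Wnt8b, Lmx1a and Rspo1 to Rspo3 were among the 12 listed genes that were not in the table. Anterior FGF signals and targets showed 3 higher and 2 lower of 13 measured, with a median of 0.07. The ligands themselves were scarce, with 17 and 14 reads in all for Fgf8 and 15 and 18 for Fgf17. The feedback inhibitor Spry1 rose from 3292 ± 290 to 4791 ± 283 and Etv4 from 2439 ± 346 to 3689 ± 423, while Spred1 fell from 5506 ± 347 to 4160 ± 191 (4159.5 unrounded, limma-trend FDR = 0.00469, 0.00661 and 0.00957). With the trend subtracted Spry1 and Spred1 lost their calls (log2 0.32 and -0.02 against 0.54 and -0.40, FDR = 0.0524 and 0.864), and Etv4 kept its call at 0.28 against 0.60 (FDR = 0.0152). Without the 4 steepest libraries Spry1, Spred1 and Etv4 were all called (0.57, -0.37 and 0.33, FDR = 1.07e-05, 0.0104 and 0.0286). With the slope as a covariate 0 genes of this list were called in either direction (Etv4 0.24, FDR = 0.519), and the lower count was 1 in 5 of the 8 fits that leave out a library.

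Ventral forebrain factors, which the dorsal factors are known to oppose, showed 2 higher and 4 lower of 14 measured, with a median of -0.11. The lower count was 1 or 2 in 7 of the 8 fits that leave out a library (1 without Phf23-/- 3, 4 without Phf23-/- 4) and 0 with the slope as a covariate or with the replicate block. Ebf1 rose from 50.1 ± 8.87 to 96.1 ± 17.4 and Nkx2-2 from 835 ± 17.9 to 1155 ± 166, and Dlx2 fell from 22.5 ± 7.20 to 6.27 ± 3.89 (limma-trend FDR = 0.00869, 0.0133 and 0.0164). Nkx2-2 was not called in the 3 length fits (log2 0.15, 0.16 and 0.30), nor Dlx2 with the slope as a covariate (-1.24, FDR = 0.640). Dlx2 was called with the trend subtracted and without the 4 steepest libraries (-2.18 and -1.77). Gsx2, a ventral target that Dmrta2 and Dmrt3 are known to repress, had 13 reads in WT and 6 in the libraries labelled Phf23-/-. The labels overlapped and Gsx2 was not called (limma-trend FDR = 0.779). Gsx1 had 364 ± 96.6 and 495 ± 99.0 normalised reads and was not called either (limma-trend FDR = 0.0813). Per kilobase in WT, the highest of the ventral list were Olig1 at 18968 and Olig2 at 6610, which also mark oligodendrocyte precursors. The rest of that list ran from 868 (Sall3) to 2.09 (Gsx2), with Dlx2 at 9.08 and Dlx1 at 3.78. Nkx2-1, Dlx5, Dlx6, Lhx6 and Lhx8 were among the 6 listed genes not in the table. The 9 dorsal genes ran from 746 for Lhx2 to 2.46 for Emx1. More posterior factors showed 4 higher and 1 lower of 15 measured, with a median of 0.16. Zic1 rose from 411 ± 42.2 to 834 ± 96.1 and Tcf7l2 from 536 ± 38.7 to 741 ± 79.4 (limma-trend FDR = 0.000581 and 0.0121). Tcf7l2 was not called with the slope as a covariate (0.34 against 0.46, FDR = 0.447). It was called with the trend subtracted and without the 4 steepest libraries (0.55 and 0.42). No Hox gene on the list was in the table.

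**Figure D5:**
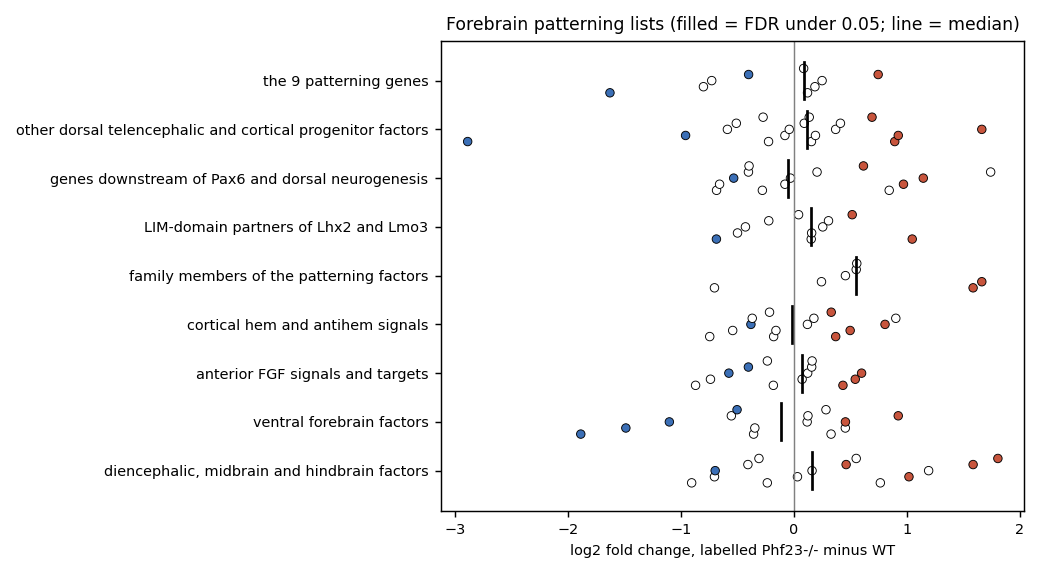
Log2 fold change, libraries labelled Phf23-/- minus WT, of the 9 patterning genes and of each measured gene in 8 related lists; red and blue points have FDR under 0.05 and the black line is the median. The medians of the 9 genes and of the 8 lists lie between -0.11 and 0.55, and most lists hold called genes on both sides of 0.

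Genes beside the 9 on the chromosome were compared as well. Sfxn5 and Spr, 8587 and 49672 bases from Emx1, rose from 1438 ± 126 to 2032 ± 48.6 and from 708 ± 107 to 1061 ± 243 (limma-trend FDR = 0.00546 and 0.0191), while Emx1 itself stayed near 0. Spr lost its call without WT 1, WT 2 or Phf23-/- 1 (highest FDR = 0.0638), and its log2 change of 0.57 was 0.11 with the slope as a covariate (FDR = 0.877) and 0.20 without the 4 steepest libraries (FDR = 0.347). Sfxn5 was not called with the covariate either (0.42 against 0.50, FDR = 0.140). With the trend subtracted Sfxn5 and Spr were called (0.61 and 0.55), and Sfxn5 was called without the 4 steepest libraries (0.41). Faf1, 14093 bases from Dmrta2, had 1328 ± 114 and 1306 ± 115 normalised reads (limma-trend FDR = 0.886), beside the 1.59-fold difference of Dmrta2.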

How the data were processed

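Gene expression was measured in 8 libraries, 4 labelled WT and 4 labelled Phf23-/-. The submitters' processing notes name mm10 as the build and DESeq2 1.38.3, STAR 2.7.1a, fastp 0.23.4 and FastQC 0.12.1 as tools. For the read counter, annotation, strand setting and gene filter nothing is stated. The deposited signal values are gene counts that the authors divided by 1 size factor per library: 100% of values were whole multiples of 1 step (tolerance 1e-04 reads), so whole reads were recovered. Of 15602 rows 64 were repeats, leaving 15538 genes, the lowest with 11 reads in all. Symbols, positions and the longest transcript came from GENCODE M21 and promoter windows from RefSeq on GRCm38.p6. Windows were found for 8 of the 9 genes, and 2 are shown.

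The main test was limma-trend (limma 3.58.1 in R 4.3.3, robust empirical Bayes), fitted to log2(value + 1) over all genes, with genotype as the only term, two-sided, with Benjamini-Hochberg adjustment. Because of the added 1, fold changes of scarce genes are understated. The script was tested on simulated data, with changes placed in genes of mean at least 10. It recovered 35 of 100 changes of 1.5-fold and 81 of 100 of 2-fold, with 8 false calls. A gene that was not called can therefore still differ by such amounts. The edgeR test planned for raw counts (edgeR 4.0.16, TMM, recovered reads, 13324 genes after its filter) and DESeq2 1.42.0 were alternatives. For the length and GC fit, a loess trend (span 0.3), estimated on 13265 genes with a mean of at least 10, was subtracted from each library. A ratio with a library at 0 had 1 added to both values. The 9 genes, the lists and the tests were chosen with earlier results of these data known. Named genes were the 9, up to 3 called genes of lowest FDR per patterning list, measured neighbours, Phf23, and the 2 most similar genes each; other genes were named after their values were seen. Tcf4 and a few others within the rule are not reported here. Marker lists are given as sums and counts.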

Additional observations from a re-analysis of the deposited data

Results flagged for a closer look

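Among 26 groups of 4 values checked (the 9 genes and 4 ratios in each label), 2 held a library far from the other 3, where chance gives about 1 in 20. Lhx2 in Phf23-/- 2 had 2686 normalised reads, and its gap to the next library was 0.887 of the range. The log2 ratio of Emx1 to Emx2 in WT 2 was -9.09, in a library with 0 Emx1 reads, with a gap of 0.864 of the range.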

How the results depend on the processing

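Beside the 1 gene called higher and 2 lower, 1 lower was left by edgeR with TMM or with DESeq2 size factors, limma-voom, a minimum mean of 10 and a pseudocount of 0.1. The slope covariate, the fit without the 4 steepest libraries and the replicate block left 0 higher and 0 lower. Leaving out each library gave 0 to 1 higher and 0 to 2 lower. Lhx2 reversed to -0.057, -0.21 and -0.16 in the 3 length fits. The Otx1/Otx2 ratio passed with 1 added to both values (1.88, exact permutation p = 0.0286), and was 2.04 to 2.80 over the libraries left out. The Lhx2/Lmo3 ratio was 0.19 with the trend subtracted and 0.45 to 0.72 over the libraries left out. The length slope difference was -0.37 to -0.25 there. Equal replicate numbers did not deviate together (r = -0.33, -0.13, -0.19 and -0.28), so the block rests on a number alone; with it the Dmrta2/Dmrt3 and Lhx2/Lmo3 ratios were 1.6005 and 0.59 (exact sign-flip permutation p = 0.125 each, the smallest for 4 pairs), and 333 of all genes were called in place of 4593. All genes called were 170 with the covariate, 1422 without the 4 steepest libraries, 2860 with the trend subtracted and 1884 to 5861 over the libraries left out (1884 without Phf23-/- 1, 2189 without WT 1 and 2106 without WT 2). The causes were not tested. Emx1 and Otx2 were too scarce for the edgeR filter, the limma-voom fit and the minimum mean of 10.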
